A study of Drosophila melanogaster with 16 samples.

Results

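The contacts described here come from 4 replicate Hi-C maps, 2 of control and 2 of lamin knock-down (Lam-KD) Drosophila S2 cells, out of 16 samples of the series. All 4 Hi-C samples were taken, and contacts were followed by distance within chromosome arms, between arms and between chromosomes. S2 is a cultured line of male embryonic origin. Control cells received dsRNA against lacZ, a bacterial sequence that flies lack, and Lam-KD cells received dsRNA against lamin Dm0, the B-type lamin of flies, each for 5 days by the labels (the study's methods give a shorter time). Both groups were grown in the same medium and no other allele or agent separates them by the labels. The methods name the 2 maps of a group as independent biological replicates of this 1 line, so that each test rests on 2 cultures a group.

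The nuclear lamina is a mesh of lamins and associated proteins under the inner nuclear membrane, to which large, mostly silent chromatin domains are attached. Hi-C joins and sequences DNA pieces that lay close together in fixed nuclei, so that a map of contact values records how often each pair of regions met. Contacts within an arm become rarer with genomic distance, contacts between arms are sparse, and in flies the centromeric ends of the arms tend to lie together.

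Each map held 6023 bins of 20 kb on the arms 2L, 2R, 3L, 3R, 4 and X of the dm3 assembly, and 5936 bins had values in all 4 maps. The deposited values are iteratively corrected contacts, with the diagonal and the neighbouring bins set to 0, so that distances start at 40 kb. Whole read pairs behind the corrected values could be recovered, and they numbered 9094954 and 9598813 in control 1 and 2 and 9984398 and 10743784 in Lam-KD 1 and 2. Between 66.0% and 67.5% of the non-zero bin pairs of a map rested on 1 read pair, so single bin pairs were not compared. Each map was scaled to a total of 10000000 contacts. One map stood apart before any comparison of groups: the share of contacts between arms was lower in control 2 than in the other 3 maps, and all 118 stretches of 1 Mb had a larger share of contacts outside their arm in control 1 than in control 2. The scaling also ties the values of a map together, since a smaller value at one distance has to be matched by larger values elsewhere in the map.

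The first comparison asked how contact frequency changed with distance along an arm after lamin loss. Contacts at 80 to 300 kb were more frequent in Lam-KD maps and contacts beyond 640 kb were less frequent, in every one of the 5 large arms. The gain was widest at 160 to 220 kb, where the value pooled over the arms was 7.11% above control, and the loss was widest at 5.12 to 7.66 Mb, where it was 9.57% below control. At 40 kb, the shortest distance that the maps hold, the groups overlapped. The Lam-KD maps differed from each other by at most 0.02 on the log2 scale over the 18 distance classes, and the control maps by at most 0.04.

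At 40 kb the mean contact value per bin pair was 229 and 226 in the control maps and 228 in each Lam-KD map. The log2 ratio of Lam-KD over control, averaged over the 4 ways to set 1 Lam-KD map against 1 control map, was 0.003, from -0.008 to 0.014, beside 0.020 for control 1 over control 2. At 160 to 220 kb the value was 30.8 and 31.4 in control and 33.3 in each Lam-KD map. Both Lam-KD maps lay above both controls there, with a log2 ratio of 0.10 that ranged from 0.08 to 0.11 over the 4 pairs, while control 1 over control 2 gave -0.03. At 0.96 to 1.26 Mb the value was 3.07 and 3.14 in control and 2.95 and 2.94 in Lam-KD. The order of the groups was turned at this distance, with a ratio of -0.08 that ranged from -0.09 to -0.06, and the controls differed by -0.03. At 3.84 to 5.1 Mb the value was 0.963 and 0.971 in control and 0.880 and 0.874 in Lam-KD, a log2 ratio of -0.14, from -0.15 to -0.13. In the farthest class, from 15.36 to 20 Mb, control gave 0.210 and 0.206 and Lam-KD gave 0.195 and 0.197, a ratio of -0.09 that ranged from -0.11 to -0.07. The loss was thus smaller in the farthest class than near 5 Mb, and the groups did not overlap in either.

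**Figure D1:**
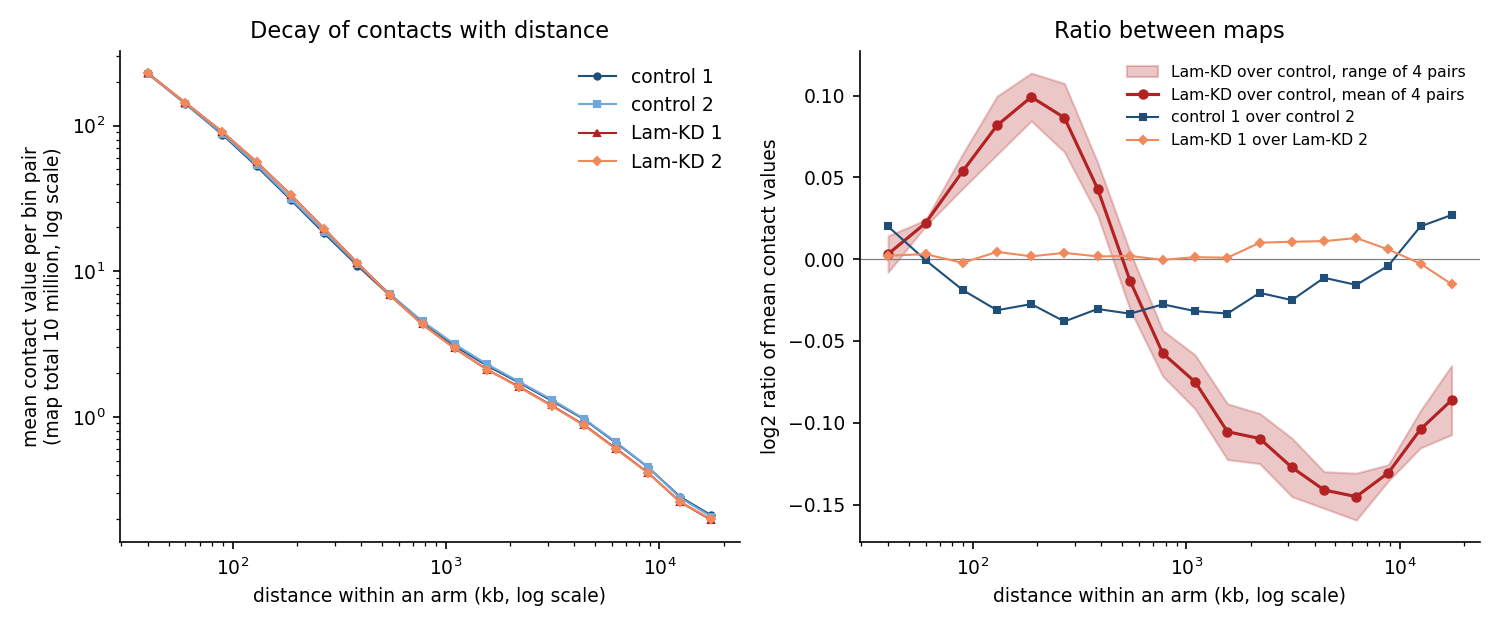
Left, mean contact value per pair of 20-kb bins against distance within an arm in the 4 maps, each scaled to the same total (both axes logarithmic). Right, log2 ratios between maps in the same classes: the Lam-KD over control line crosses 0 between 320 and 640 kb, reaching 0.10 at 160 to 220 kb and -0.15 at 5.12 to 7.66 Mb, while control 1 over control 2 stays between -0.04 and 0.03.

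The 5 large arms were tested one by one with limma, which fits all 90 values of an arm and a class together, and a call meant a Benjamini-Hochberg adjusted p under 0.05. Of the 90 values, 75 (83.3%) were called, 24 (26.7%) higher and 51 (56.7%) lower in Lam-KD. Without regard to the test, 31 (34.4%) were higher and 52 (57.8%) lower in all 4 pairs of maps. Each of the 5 arms was called higher in every class from 80 to 300 kb and lower in every class from 640 kb to 20 Mb. At 160 to 220 kb the log2 fold change lay between 0.09 in 2L and 0.12 in 3R, with a standard error of 0.02 and an adjusted p of at most 1.74e-07. At 5.12 to 7.66 Mb it lay between -0.16 in 2R and -0.13 in 3L, with an adjusted p of at most 3.21e-13. The turn from gain to loss lay between 320 and 640 kb in the 5 arms: at 320 to 460 kb 4 arms were still called higher and X was not (adjusted p = 0.055), at 480 to 620 kb 2R was called lower at -0.04 while 3L was at 0.002, and at 640 to 940 kb all 5 were lower. The arms spread most at 7.68 to 10.22 Mb, where the log2 fold change was -0.18 in X and -0.10 in 2L.

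The standard error was the same for every value, because limma estimated 1 common spread for the 90 values. Each test thus had 180 degrees of freedom, although there were 4 maps. The 90 values of a map are linked by its total, so their p-values are not independent. The size of these p-values therefore does not measure the spread between 2 cultures a group. In the maps as deposited, without equal totals, 27 of 90 values were called and all 27 were higher, since the Lam-KD maps hold more contacts. In read pairs before iterative correction, scaled to equal totals, 74 were called, 24 higher and 50 lower. Read pairs per map were also higher in Lam-KD than in control, and their part in the decay was not tested.

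**Figure D2:**
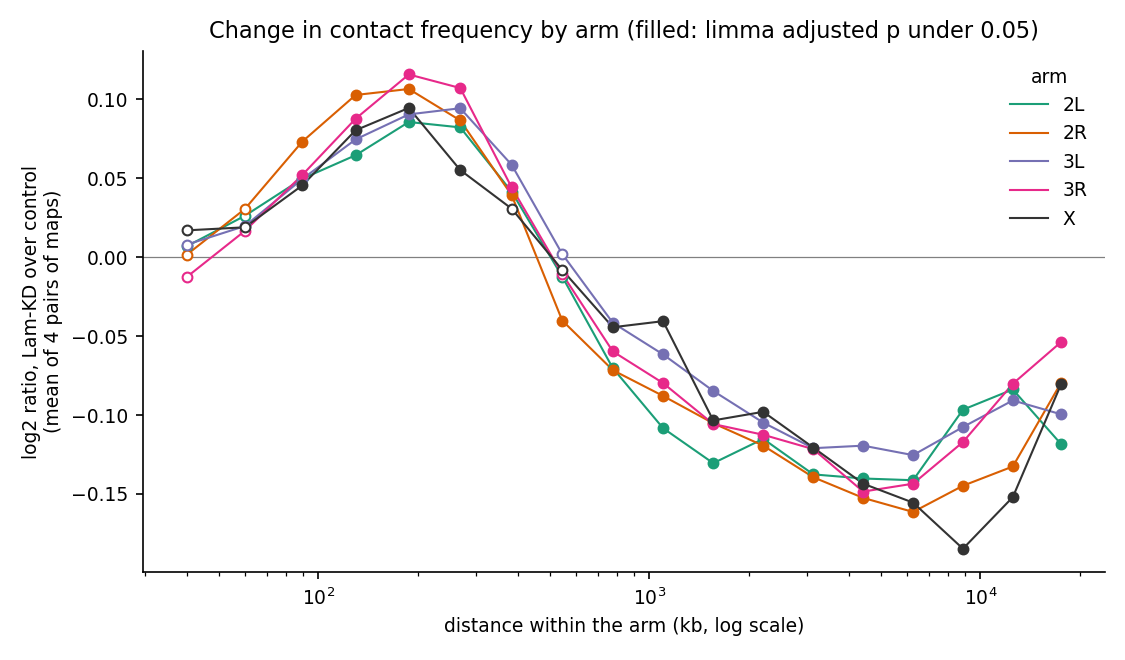
Log2 ratio of Lam-KD over control contact values (mean of the 4 pairs of maps) against distance (log axis) in each large arm, filled where limma gave an adjusted p under 0.05. All 5 arms are above 0 from 80 to 300 kb and below 0 from 640 kb to 20 Mb.

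The slope of the decay gives the same change as 1 number per map: how steeply contacts drop on logarithmic axes. From 200 kb to 2 Mb the slope was -1.132 in both control maps and -1.200 in both Lam-KD maps. Both Lam-KD maps were thus steeper than both controls, by -0.07 on average, and the gap between replicates of a group was 0.0002 or less. The two-sided exact permutation test gave p = 0.333, the smallest that 2 maps against 2 can give, so no single value per map can pass a threshold of 0.05 in this design. The slope was steeper in all 4 pairs in each arm. It was steepest in 2L, at -1.229 in each control map and -1.306 and -1.305 in Lam-KD, and shallowest in 2R, at -1.065 and -1.066 in control and -1.136 and -1.131 in Lam-KD. From 40 to 400 kb the order was the other way, with -1.375 and -1.364 in control and -1.360 and -1.359 in Lam-KD. This shallower slope came from 4 arms, since in X the groups overlapped. From 1 to 10 Mb the slope was -0.960 and -0.969 in control and -0.977 and -0.980 in Lam-KD. The groups did not overlap in this pooled value, but they did in 2L (difference 0.005), and X had the largest difference, -0.04.

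Counted as shares of all contacts within arms, the range from 100 kb to 1 Mb held 39.6% and 40.1% in control and 41.4% and 41.5% in Lam-KD, a mean difference of 1.63 percentage points. The range from 40 to 100 kb held 31.6% and 31.2% in control and 31.9% in each Lam-KD map. Both near ranges were higher in both Lam-KD maps than in both controls. The range from 1 to 5 Mb held 18.6% and 18.7% in control and 17.3% in each Lam-KD map, a difference of -1.34 points. The range from 5 to 20 Mb held 9.96% and 9.87% in control and 9.12% and 9.10% in Lam-KD, a difference of -0.80 points. In none of the 4 ranges did the groups overlap (exact permutation p = 0.333 for each).

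The loss of far contacts was spread along each of the 5 large arms. For each 20-kb bin the far share was taken as the percentage of the bin's contacts within its own arm that lay beyond 1 Mb. The median log2 fold change over 5874 bins was -0.11, and 89.7% of the bins had a value below 0. limma called 1243 bins (21.2%), of which 1234 (21.0%) were lower and 9 (0.153%) higher in Lam-KD. These calls need all 4 maps: without control 1, without control 2, without Lam-KD 1 or without Lam-KD 2, 0 bins passed the adjusted threshold, although 2050, 1988, 1974 and 1901 bins had an unadjusted p under 0.05. With the median of all bins subtracted from each map 0 bins were called, with 883 at an unadjusted p under 0.05 (498 higher and 385 lower), so that no bin was called against the shift of the whole map.

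Averaged over stretches of 1 Mb, the far share was lower in both Lam-KD maps than in both controls in 118 of 118 stretches (100%), with a median difference of -2.22 points. Control 1 was above control 2 in 61 of the 118. The 5 stretches with the largest loss lay away from the centromeric ends. In 3R:20000001-21000000 the far share was 33.5% and 33.6% in control and 29.9% and 30.0% in Lam-KD, a difference of -3.58 points. In 3L:16000001-17000000 it was 39.8% and 39.7% in control and 36.5% and 36.4% in Lam-KD. The other 3 were 2R:12000001-13000000 with -3.29 points, 2L:6000001-7000000 with -3.25 and 2R:11000001-12000000 with -3.25. In each of the 5 the gap between the groups was over 3 points in every pair of maps.

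The smallest losses included stretches at the centromeric ends of 2R and 3L, which held few far contacts in control as well. The centromeric end of 3R did not share this: in 3R:1-1000000 the far share was 25.7% and 25.1% in control and 23.3% and 22.7% in Lam-KD, a difference of -2.40 points. In 2R:1-1000000, the centromeric end of 2R, the far share was 14.8% and 15.1% in control and 14.1% and 14.3% in Lam-KD, a difference of -0.72 points. In 3L:23000001-24000000, about 1 Mb from the centromeric end of 3L, it was 13.9% in each control map and 13.1% in each Lam-KD map. A small loss was also found near the other end of an arm, in 2L:1000001-2000000, with 21.0% and 20.8% in control and 20.0% in each Lam-KD map. No stretch had a larger far share in Lam-KD than in control, and the groups did not overlap in any. The stretches of 3L ended at 24000000 and so left out the last part of that arm. Beyond them lay 3L:24500001-24520000, 1 of the 9 bins called higher, with 17.05% and 18.69% in control and 22.78% and 22.73% in Lam-KD. Also among the 9, X:16140001-16160000 had a far share of 23.4% and 23.3% in control and 30.4% and 28.2% in Lam-KD (limma log2 fold change 0.33, adjusted p = 0.035). Both bins were chosen for naming after their values were seen.

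The next comparison asked whether contacts moved from within arms to between arms. The share of contacts within arms was 87.1% and 88.0% in control and 87.4% and 87.2% in Lam-KD, so that both Lam-KD maps lay between the controls. The difference of the means was -0.27 points, from -0.78 to 0.23 over the 4 pairs, against a gap of 0.86 points between the controls (exact permutation p = 1). Without control 1 the difference was -0.70 points and without control 2 it was 0.16, so its direction rests on which control is kept. The share between the arms of 1 chromosome, 2L with 2R and 3L with 3R, was 3.07% and 2.87% in control and 2.91% and 2.96% in Lam-KD, and the groups overlapped (p = 1 by the same exact test). The share between chromosomes was 9.80% and 9.13% in control and 9.73% and 9.83% in Lam-KD, a difference of 0.31 points, from -0.07 to 0.69 (exact permutation p = 0.667). None of the 3 shares separated the groups. Pairs of bins within arms made up 19.8% of all pairs of bins, pairs between arms of 1 chromosome 16.4% and pairs between chromosomes 63.8%.

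Shares of recovered read pairs were known far more exactly than they were repeated between cultures. The within-arm share of read pairs was 88.26% in control 1, with a 95% Wilson interval from 88.24% to 88.28%, and 88.97% in control 2, with an interval from 88.95% to 88.99%. In Lam-KD it was 88.53% and 88.40%, between the controls again. The intervals cover counting error only, and the gap between the control cultures was many times their width.

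X was the one large arm whose share outside the arm did not overlap between groups. It was 11.2% and 10.4% in control and 11.5% and 11.4% in Lam-KD, a difference of 0.67 points. When the mean of 2L, 2R, 3L and 3R in the same map was subtracted, which removes what the arms of a map share, X gave -2.05 and -1.95 points in control and -1.35 and -1.70 in Lam-KD. X thus lay below that mean in each map, and nearer to it in both Lam-KD maps (difference 0.47 points, exact permutation p = 0.333). These shares are unlike, since those of the 4 arms include the other arm of their chromosome. X has no second arm in the map. In contacts with other chromosomes alone, X was above 2R, 3L and 3R in each map. It was below 2L in both controls (11.4% and 10.8%) and above 2L in both Lam-KD maps (11.2% and 11.3%). By this measure the 4 arms differed by 0.14 to 0.37 points between groups that overlapped. Arm 4, the small and largely heterochromatic chromosome 4, has no second arm in the map either. It gave 7.25 points above the same mean in each control map and 6.80 and 6.03 in Lam-KD, so both Lam-KD maps were below both controls. The share itself, 20.5% and 19.6% in control and 19.7% and 19.1% in Lam-KD, overlapped between groups.

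**Figure D3:**
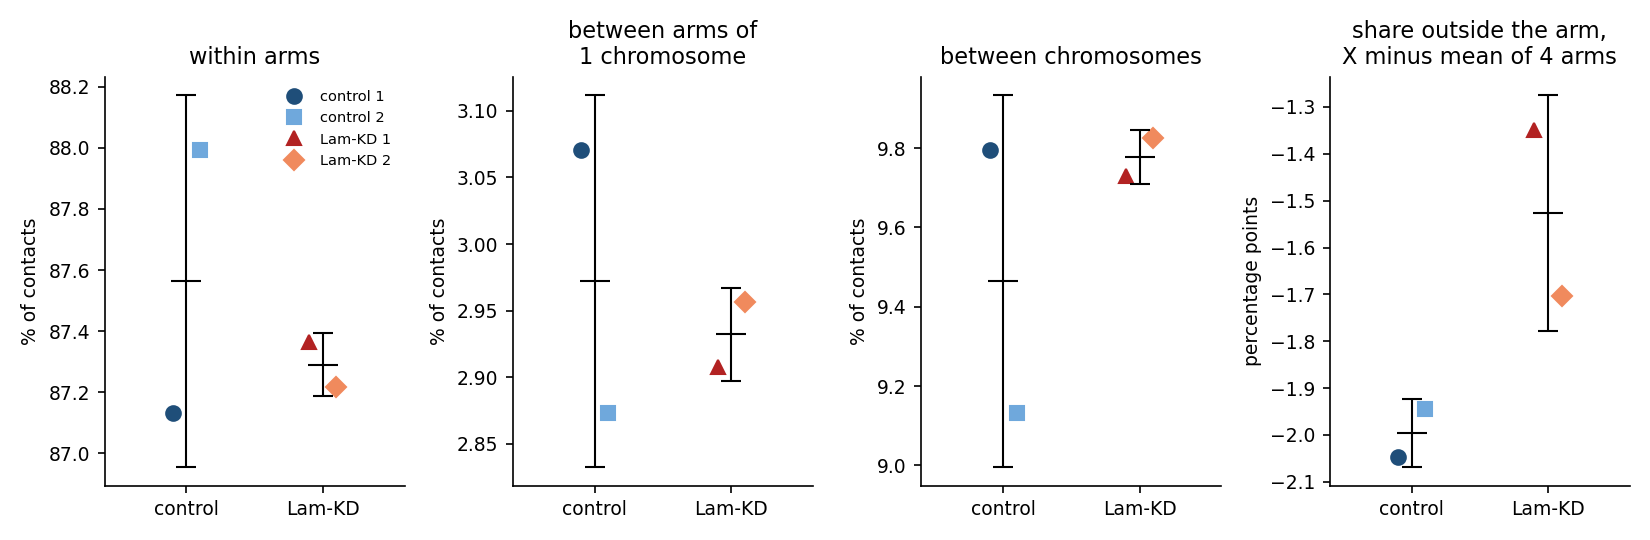
Percentage of contacts within arms, between arms of 1 chromosome and between chromosomes in each map, and the share of X contacts outside X minus the mean of the same share in 2L, 2R, 3L and 3R (points, 1 map each; bars, mean and SD, n = 2; the axes do not start at 0). In the first 3 panels the groups overlap and the controls lie farther apart than the Lam-KD maps, and in the last both Lam-KD maps, at -1.35 and -1.70 points, lie above both controls.

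By pairs of arms, contacts of X with each of the other large arms had higher values in both Lam-KD maps than in both controls, without passing the test across arm pairs. For 2L with X the mean contact value per bin pair was 0.0789 and 0.0743 in control and 0.0826 and 0.0818 in Lam-KD, a log2 ratio of 0.10 that ranged from 0.05 to 0.15. For 3L with X it was 0.0742 and 0.0692 in control and 0.0771 and 0.0760 in Lam-KD, a ratio of 0.09. For 3R with X the ratio was 0.08, from 0.02 to 0.14, and for 2R with X it was 0.07, from 0.0004 to 0.15. These 4 of 15 arm pairs (26.7%) were higher in all 4 pairs of maps. Control 1 over control 2 gave 0.09, 0.10, 0.11 and 0.12 in the same 4 arm pairs. With each map scaled to an equal inter-arm total in place of an equal total, the 4 were again higher in all 4 pairs of maps, at 0.07, 0.06, 0.05 and 0.04, and control 1 over control 2 was at -0.01, 0.002, 0.006 and 0.02.

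Of the 15 arm pairs, 3 (20.0%) were lower in all 4 pairs of maps. They were 2L with 4 (0.141 and 0.135 in control, 0.132 and 0.127 in Lam-KD, log2 ratio -0.09), 3R with 4 (0.105 and 0.102 in control, 0.0982 and 0.0984 in Lam-KD, ratio -0.08) and 2L with 3L. The 2L with 3L value was 0.144 and 0.139 in control and 0.138 and 0.139 in Lam-KD, and the groups overlapped once the highest 0.1% of its bin pairs were left out. The arms of 1 chromosome gave -0.02 for 2L with 2R and -0.02 for 3L with 3R, with ranges on both sides of 0. Under equal inter-arm totals both were lower in all 4 pairs of maps, at -0.05 for 2L with 2R (from -0.06 to -0.04) and -0.05 for 3L with 3R (from -0.06 to -0.05). The remaining pairs of large arms, 2L with 3R, 2R with 3R and 2R with 3L, gave 0.04, 0.06 and 0.06, and their groups overlapped as well. limma called 0 of 15 arm pairs (0%), and 0 had an unadjusted p under 0.05. Under equal inter-arm totals it called 0 as well, with 6 at an unadjusted p under 0.05, 2 higher and 4 lower, and a smallest adjusted p of 0.065. Without control 1, which leaves control 2 with its low inter-arm share as the only control, 6 were called, all higher in Lam-KD.

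**Figure D4:**
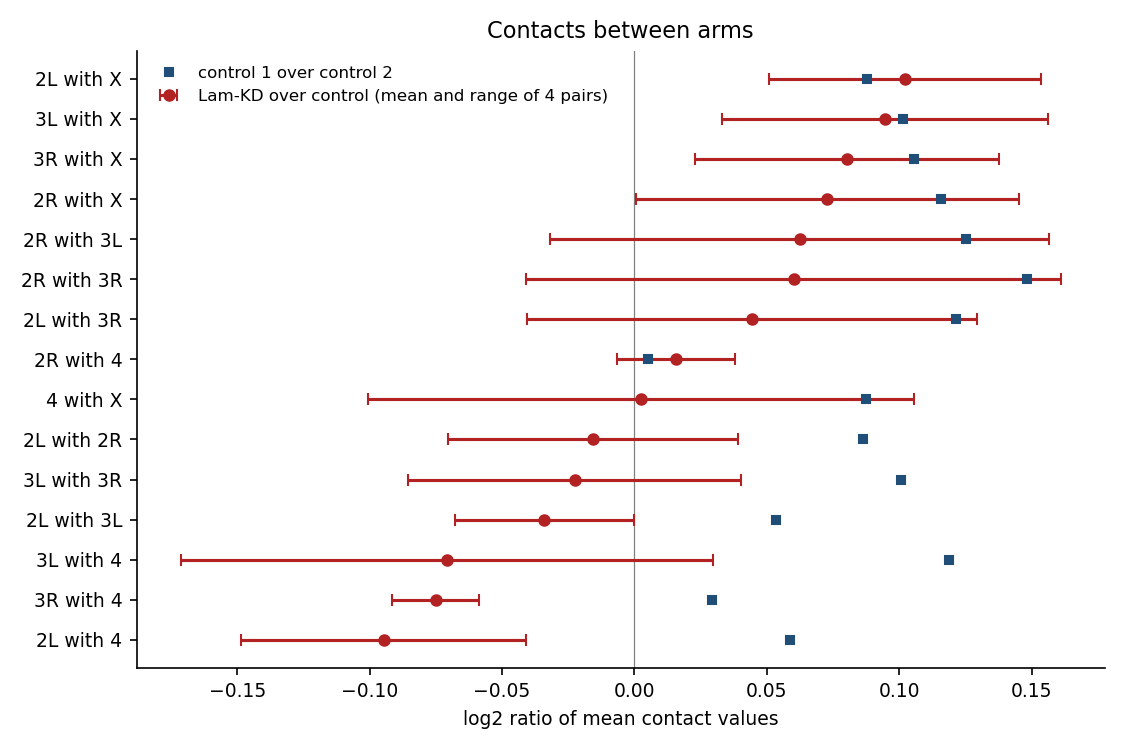
Log2 ratio of Lam-KD over control mean contact values for the 15 pairs of arms (circle, mean of 4 pairs of maps; bar, lowest to highest pair), with control 1 over control 2 as squares. The 4 pairs of a large arm with X lie above 0 and the pairs 2L with 4, 3R with 4 and 2L with 3L lie below it, while the control ratios are all above 0, up to 0.15.

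At a finer scale, 5555 pairs of 1-Mb blocks in different large arms were compared. limma called 0 of them (0%), with 341 at an unadjusted p under 0.05, of which 288 were higher and 53 lower in Lam-KD. Without control 1 the count was 32, without control 2 it was 17 and without Lam-KD 2 it was 3. In all 4 pairs of maps 1304 (23.5%) were higher and 657 (11.8%) were lower. The 341 are 6.14% of the block pairs. X was in 38.0% of all block pairs and in 189 of the 288 that were higher: 49 joined 2L with X, 31 joined 2R with X, 53 joined 3L with X and 56 joined 3R with X. X was also in 33 of the 53 that were lower. Of the block pairs with X, 8.9% were higher and 1.6% lower at that threshold, beside 2.9% and 0.6% of those without X. X was thus more frequent in both directions. Contacts with X also rested on fewer read pairs: in control 1 the 4 arm pairs with X held 53462 to 64905. The other pairs of large arms held 86529 to 195167, on a similar number of bin pairs. The part of this depth in the counts with X was not tested. The median log2 ratio of the block pairs was 0.10 for 2L with X, 0.07 for 2R with X, 0.10 for 3L with X and 0.07 for 3R with X, and -0.01 for 2L with 2R and for 3L with 3R. The controls again gave ratios of this size, with medians of control 1 over control 2 between 0.07 and 0.14 over the 10 arm pairs.

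The 5 block pairs with the highest log2 ratio all included a block of X, and they rested on 30 to 81 read pairs a map. The first was 3R:24000001-25000000 with X:1000001-2000000, at 0.0373 and 0.0471 in control and 0.0872 and 0.0614 in Lam-KD, on 38, 46, 81 and 71 read pairs. Its log2 ratio was 0.74, from 0.35 to 1.13, and control 1 over control 2 gave -0.30. The next was 3L:1000001-2000000 with X:1-1000000, with a ratio of 0.71. The others were 3L:9000001-10000000 with X:21000001-22000000 at 0.71, 3R:23000001-24000000 with X:1-1000000 at 0.67 and 2L:11000001-12000000 with X:1-1000000 at 0.67. Block X:1-1000000, the end of X away from the centromere, was thus in 3 of the 5.

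The 5 block pairs with the lowest log2 ratio included X in 4 cases. The first was 3L:16000001-17000000 with X:9000001-10000000, at 0.0852 and 0.0838 in control and 0.0560 and 0.0558 in Lam-KD, on 115, 146, 102 and 118 read pairs, with a log2 ratio of -0.56 and a limma adjusted p of 0.476. The others were 3R:1-1000000 with X:1000001-2000000 at -0.52, 2L:20000001-21000000 with 3R:5000001-6000000 at -0.51, 3R:13000001-14000000 with X:21000001-22000000 at -0.51 and 2R:2000001-3000000 with X:16000001-17000000 at -0.49. These 10 block pairs were picked for groups that do not overlap, and none passed the adjusted threshold.

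The highest contact values between arms were few and nearly all joined 2L with 3L. They were chosen for their mean level over the 4 maps after the values were seen, so they carry no test. They are inter-arm contacts by the arms of dm3, and whether 2L and 3L are joined in this stock of S2 cells was not tested. At 4 or more times the mean inter-arm value there were 36 block pairs, of which 32 joined 2L with 3L, 2 joined 2L with 2R and 2 joined 3L with X. The highest was 2L:8000001-9000000 with 3L:1-1000000, the end of 3L away from its centromere, at 17.7 times the mean. Its value was 1.63 and 1.64 in control and 1.49 and 1.46 in Lam-KD, on 3606 to 3772 read pairs a map, and its log2 ratio was -0.15, from -0.16 to -0.14. Contact values of 1.03 and 1.05 in control and 0.967 and 1.01 in Lam-KD joined the centromeric ends of chromosome 2, 2L:22000001-23000000 with 2R:1-1000000, a ratio of -0.07.

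Of these 36 block pairs, 29 were lower and 0 higher in all 4 pairs of maps, where 11.8% of all block pairs were lower. That share is no matched baseline, because the 36 were deeper. The highest of them rested on 3606 to 3772 read pairs a map, beside 102 to 146 for 3L:16000001-17000000 with X:9000001-10000000. Several of the 36 also share a block, so they are not independent. Their mean value was 0.606 and 0.612 in control and 0.561 and 0.554 in Lam-KD, a ratio of means of 0.916. The median log2 ratio over the 36 was -0.13, beside -0.02 for control 1 over control 2. For comparison, the within-arm class nearest to this mean level, 5.12 to 7.66 Mb with control values of 0.662 and 0.669, had a log2 ratio of -0.15.

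The share of each bin's contacts that lay outside its arm was compared along the chromosomes. limma called 0 of 5936 bins (0%), with 486 at an unadjusted p under 0.05, of which 413 were higher and 73 lower in Lam-KD. With the median of all bins subtracted from each map these were 305 higher and 345 lower, and without control 2 they were 248 and 258. Without Lam-KD 1 the adjusted threshold was passed by 1 bin and without Lam-KD 2 by 9, all higher. The median log2 fold change was 0.09 in X, 0.04 in 2R, 0.03 in 3R, 0.02 in 2L, 0.01 in 3L and -0.06 in 4. Of the 118 stretches of 1 Mb, 29 (24.6%) were higher and 4 (3.39%) lower in all 4 pairs of maps. X held 17 of the 29, out of its 22 stretches. In X the values of all 22 stretches were above 0, from 0.19 to 1.25 points. The median difference was above 0 in the other large arms too: 0.65 points in X, 0.38 in 2R, 0.27 in 3R, 0.12 in 2L and 0.10 in 3L. Control 1 minus control 2 had a median of 0.80 points in X.

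The largest positive difference was in X:2000001-3000000, with 12.3% and 11.2% in control and 13.4% and 12.7% in Lam-KD, a difference of 1.25 points. In 2L:1000001-2000000, the one autosomal stretch among the 5, the share was 14.05% and 13.05% in control and 14.6% and 14.8% in Lam-KD. The others were X:3000001-4000000 with 1.11 points, X:12000001-13000000 with 0.98 and X:18000001-19000000 with 0.90. The 4 stretches that were lower were led by the 2 that form the highest block pair. In 3L:1-1000000 the share was 24.9% and 24.1% in control and 23.4% and 23.6% in Lam-KD, and in 2L:8000001-9000000 it was 23.4% and 22.7% in control and 22.2% and 22.3% in Lam-KD. The other 2 were 3R:5000001-6000000 with -0.56 points and 3L:7000001-8000000 with -0.33.

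Contacts between the ends of arms were set against the mean of all inter-arm contacts of the map, taking 2 Mb at each end of the 5 large arms. On average, bins at 2 centromeric ends met more often than other bins, at 2.09 and 2.19 times the mean in control and 2.10 and 1.99 times in Lam-KD. Bins at 2 ends away from the centromere were at 1.41 and 1.42 times the mean in control and 1.46 and 1.39 times in Lam-KD. In both classes the groups overlapped, with differences of -0.09, from -0.20 to 0.01, and of 0.01, from -0.02 to 0.05 (exact permutation p = 0.667 and p = 1). For 2 centromeric ends this depended on the size of an end. With ends of 1 Mb both Lam-KD maps were below both controls, at 3.13 and 3.41 in control and 3.12 and 3.05 in Lam-KD, and so they were with ends of 4 Mb, at 1.39 and 1.42 in control and 1.38 and 1.37 in Lam-KD (exact permutation p = 0.333 for each). Contacts of a centromeric end with an end away from a centromere were at 0.956 and 0.949 in control and 0.970 and 1.002 in Lam-KD, so that both Lam-KD maps were above both controls (exact permutation p = 0.333). With ends of 1 Mb the groups overlapped, and leaving out 1 map moved the difference of 0.03 to between 0.02 without Lam-KD 2 and 0.05 without Lam-KD 1. The arm pairs were unlike each other. Among 1-Mb blocks lying under 1 Mb from the centromeric end, 2L with 2R was at 11.5 times the mean inter-arm value, 2L with 3R at 1.36 times and 2R with 3R at 0.998 times. The nearest blocks of 3L and X lay at 1.05 and 1.02 Mb, so pairs with these arms, such as 3L with 3R, are not among them. Bins at matching distances from the centromeric end, within 1 Mb, met 1.039 and 1.030 times as often in control as bins over 10 Mb apart in that distance, and 1.031 and 1.037 times as often in Lam-KD. The groups overlapped here, but both Lam-KD maps were below both controls without X (1.052 and 1.042 in control, 1.029 and 1.041 in Lam-KD) and with relative position along the arm in place of distance (1.051 and 1.053 in control, 1.043 and 1.045 in Lam-KD; exact permutation p = 0.333 for each).

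Bins were also divided into quartiles of 1467 or 1468 bins by their H3 acetylation in control cells, as ChIP counts over input counts, a measure that the Hi-C maps did not set. Acetylated H3 marks active chromatin. Among contacts between arms, those of the most acetylated bins with each other were rarer in Lam-KD and those among the least acetylated bins were more frequent, each relative to the mean inter-arm value of the map. Top with top gave 1.28 and 1.31 in control and 1.20 in each Lam-KD map. Bottom with bottom gave 0.922 and 0.907 in control and 0.951 and 0.945 in Lam-KD. Top with bottom gave 0.920 and 0.922 in control and 0.908 and 0.902 in Lam-KD. None of the 3 classes overlapped between groups (exact permutation p = 0.333 for each).

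Over all 10 pairs of quartiles the log2 ratio ran from -0.11 for the highest with the highest to 0.07 for the lowest with the second lowest, with control 1 over control 2 between -0.03 and 0.03. The groups did not overlap in any of the 10. Every pair that held the highest quartile was lower in Lam-KD, and every pair within the 2 lowest quartiles was higher. For the 10 pairs of large arms, each value was instead divided by the map's mean for that arm pair, which takes out the level of the arm pair. Single arm pairs were not set against the mean inter-arm value of the map. By arm pair, top with top was lower in all 4 pairs of maps in each of the 10, from -0.14 in 2L with X to -0.07 in 3L with X. Bottom with bottom was less even: it was higher in all 4 pairs of maps in 2L with 3L, 2L with X, 3L with 3R, 3L with X and 3R with X, and the groups overlapped in the other 5. The ratio of top with top over bottom with bottom was 1.39 and 1.45 in control and 1.26 and 1.27 in Lam-KD. Before division by the mean inter-arm value, top with top was 0.116 and 0.110 in control and 0.106 and 0.108 in Lam-KD, again lower in both Lam-KD maps, while top with bottom overlapped. Bottom with bottom was 0.0832 and 0.0764 in control and 0.0843 and 0.0847 in Lam-KD, and its difference of 0.0048 was smaller than the gap of 0.0068 between the controls, was 0.0014 without control 2, and overlapped between groups without X.

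The loss of far contacts within arms was larger in more acetylated bins. In the highest quartile the far share was 35.4% in each control map and 31.9% in each Lam-KD map, a difference of -3.48 points. In the lowest quartile it was 24.2% and 24.4% in control and 22.9% and 22.7% in Lam-KD, a difference of -1.48 points. Between them, the difference was -1.54 points in the second quartile and -2.20 in the third, and the groups did not overlap in any quartile. The gap between the highest and lowest quartile was 11.21 and 11.03 points in control and 9.03 and 9.22 in Lam-KD, a difference of -1.996 points (exact permutation p = 0.333). By bin, the median log2 fold change of the far share was -0.15 in the highest quartile, -0.11 in the third, -0.08 in the second and -0.09 in the lowest. In relative terms the loss was thus again largest in the highest quartile, but it was not larger in the second than in the lowest. limma called 37.8% of the bins of the highest quartile lower and 12.1% of the lowest, where 21.0% of all bins were called lower.

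The share of contacts outside the arm moved differently across these quartiles. In the lowest it was 11.9% and 11.1% in control and 12.0% and 12.1% in Lam-KD, and in the highest it was 13.7% and 12.9% in control and 13.0% and 13.2% in Lam-KD. The highest exceeded the lowest by 1.79 and 1.83 points in the controls and by 1.01 and 1.12 points in Lam-KD, a measure in which control 2 did not stand apart. Within the arms, the range from 100 kb to 1 Mb was 2.21 points higher in Lam-KD in the highest quartile and 1.27 in the lowest. Acetylated bins were the ones with more far and more inter-arm contacts in control, and both excesses were smaller in both Lam-KD maps.

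**Figure D5:**
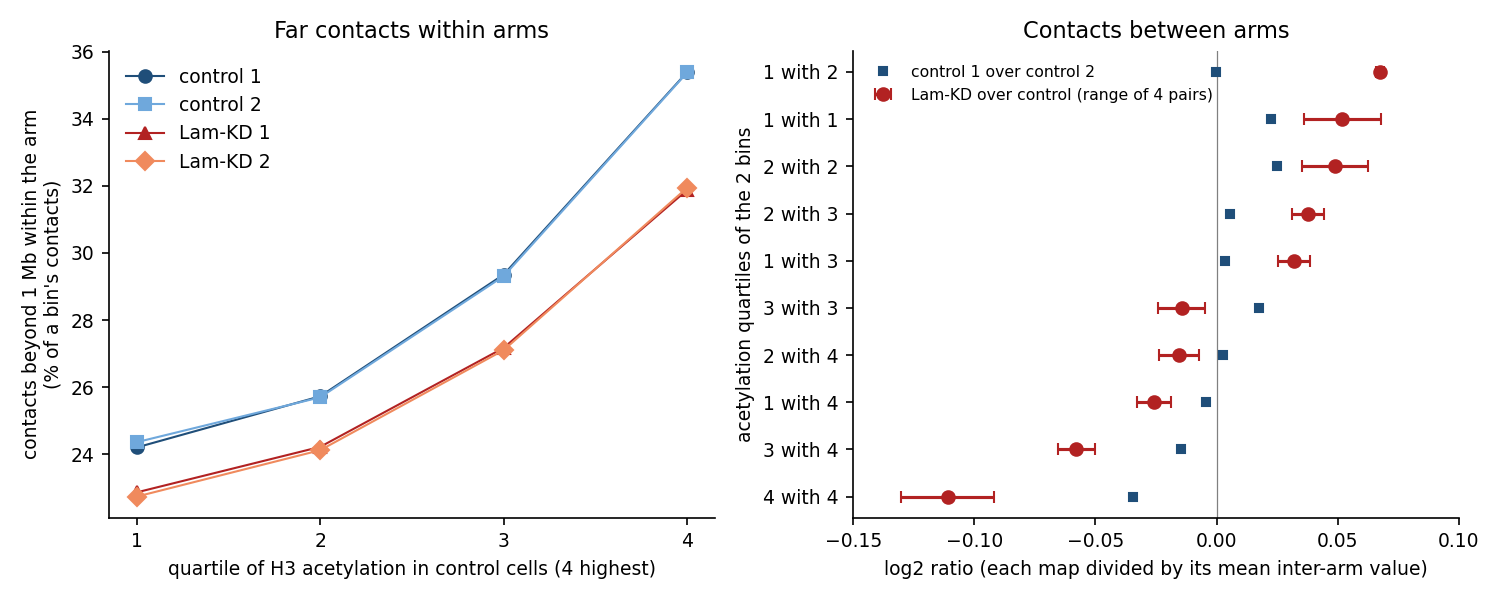
Left, mean share of a bin's within-arm contacts that lie beyond 1 Mb, by quartile of H3 acetylation in control cells, in each map (the axis does not start at 0): the controls run from 24.2% to 35.4% and the Lam-KD maps from 22.7% to 31.9%. Right, log2 ratio of inter-arm contacts between quartiles, each map divided by its mean inter-arm value (circle, mean of 4 pairs of maps; bar, range; squares, control 1 over control 2), from -0.11 for 4 with 4 to 0.07 for 1 with 2.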

How the data were processed

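The authors mapped the Hi-C reads to dm3 with Bowtie2 2.2.1. Their deposited signal is a contact value for 2 bins of 20 kb after iterative correction. The deposited ChIP-seq and input counts are whole numbers per 1-kb bin, summing to 13093678 and 13100860 for ChIP and to 2990256 and 1997575 for input in control. The ChIP sums are above the number of reads that the methods state, and this difference could not be settled, so the counts served only to filter and rank bins. The knock-down of lamin Dm0 in RNA was not analysed here.

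Each map was scaled to 10000000 contacts. Read pairs were recovered from the steps of the corrected values, and at least 99.99% came out whole within 0.01. Log2 values were tested with limma 3.58.1 in R 4.3.3 (Benjamini-Hochberg adjusted p under 0.05; tested on simulated data), single values per map with two-sided exact permutation tests in scipy 1.17.1. Block pairs used a pseudocount of 0.05 of the mean inter-arm value, per-bin shares bins with at least 100 non-zero partners, and acetylation bins with an input count of at least 50. Named regions were the 5 blocks or stretches with the largest difference in each direction that moved the same way in all 4 pairs of maps, each pair of large arms and 5 distance classes. Replicate numbers only name samples. TAD density and PC1 were left out. Alternatives changed the scaling, distances, filters, blocks, maps and limma's prior. The measures and regions were chosen with earlier results of these data known.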

Additional observations from a re-analysis of the deposited data

How the results depend on the processing

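Depth limits the maps to means over many bin pairs, and 2 maps against 2 cannot reach an exact p under 0.333. Of 143 alternative values, 112 kept their direction or stayed within 1.5 times the count, 20 counts moved further and 11 differences changed sign. Scaffolds of heterochromatin could not be added, since the maps hold 6 arms only. The causes were not tested. Read pairs before correction (for the decay and arm pairs) and division of acetylation classes by the mean inter-arm value were chosen after seeing the data.

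As differences of Lam-KD minus control, the top with bottom acetylation class was -0.01639 after that division, a change of unit, and -0.001218 without X. Contacts of 2 ends away from the centromere were -0.05355 with ends of 1 Mb, and the decay slope was 0.009694 at 40 to 400 kb. Leaving out each map in turn, the within-arm share ranged from -0.7029 to 0.1571 points, the share between arms of 1 chromosome from -0.1386 to 0.05868, the share between chromosomes from -0.01848 to 0.6442, top with bottom from -0.002322 to 0.003033, ends away from the centromere from -0.01788 to 0.04583 and the matched-position ratio from -0.004876 to 0.004123.

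limma called 27 values of arm and distance in maps as deposited and 36 of 45 with 1 class per doubling. In maps as deposited it called 9 arm pairs and 21 block pairs. Block pairs gave 5 with a trended, robust prior and 1 with 2-Mb blocks. Inter-arm shares gave 13 of 1203 windows of 100 kb. Far shares gave 1973 bins with the trended, robust prior, 0 with the median subtracted and 0 beyond 5 Mb. Leaving out each map, the counts ranged from 0 to 6 for arm pairs, 0 to 32 for block pairs, 0 to 9 for inter-arm shares and 65 to 80 for arm and distance, and were 0 each time for far shares.

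The replicate numbers pair no cultures. With them as a block, limma called 75 values of arm and distance, 0 arm pairs, 0 block pairs, 0 inter-arm shares and 1001 far shares.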
